A study of Homo sapiens with 6 samples.

Results

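The unfolded protein response (UPR) and the ATF4 stress response were examined as a set of 35 genes, which comprised sensors of stress in the endoplasmic reticulum (ER), their transcription factors, ATF4 and stress output genes, ER chaperones, protein disulfide isomerases and factors of ER-associated degradation (ERAD). The genes were selected by symbol, and all 35 were present among 39261 named probe sets, each with 1 probe set. RNA was taken from MIA-PaCa2 cells, an established human pancreatic ductal adenocarcinoma (PDAC) line. The cells had been transfected either with siH19-2, a FlexiTube siRNA against the long noncoding RNA H19 (3 arrays), or with NC, the AllStars Negative Control siRNA (3 arrays). All cells of both groups thus received lipofectamine 2000 and an siRNA. The methods give 50 nM siRNA, whereas the labels give 20 µg of each siRNA, and per the description of the study the RNA was isolated 24 h after transfection. Both groups came from a single cell line and a single H19 siRNA was used, so effects of the lowering of H19 and other effects of this siRNA cannot be told apart. Arrays of another H19 siRNA were not analysed here.

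On the Clariom D array, biotin-labelled copies of the RNA bind to short probes, and the deposited value is a log2 signal in which the probes of a gene are combined. A log2 difference of 1 is a doubling, and differences are given as siH19-2 minus NC throughout. A gene was called upregulated or downregulated in siH19-2 cells when the limma p-value, adjusted by Benjamini-Hochberg over all named probe sets, was under 0.05. The sources do not state whether the 3 arrays of a group came from separate cultures, so p-values here reflect no more than the spread between these arrays, which may be technical. With 3 arrays per group no exact permutation p below 0.1 is possible. In RNA of a whole culture, fewer cells with a transcript and less transcript per cell cannot be told apart. The targeted RNA, H19, was lower in siH19-2 cells (log2 signal 7.10 ± 0.02) than in NC cells (7.40 ± 0.04; SD, n = 3 each; difference -0.30, limma adjusted p = 0.0121), and its call was lost without NC replicate 2 or 3 or without siH19-2 replicate 1 or 2 (adjusted p up to 0.0668). Markers of the line (KRT8, KRT18, VIM, CD44) had mean log2 signals of 9.33 to 13.10 in siH19-2 cells and 9.43 to 13.09 in NC cells. The ductal epithelial markers EPCAM, CDH1 and CFTR lay below the median of all probe sets (6.16). The ductal markers KRT19 (8.84 in siH19-2 cells, 9.24 in NC cells) and KRT7 (6.95 and 6.99) lay above it. Of these 4 line markers CD44 was downregulated in siH19-2 cells (-0.25, adjusted p = 0.0222), and of the 5 ductal markers KRT19 (-0.40, 0.0323), and of the fits with 1 array left out, both kept this call only without siH19-2 replicate 3. The summed log2 signal was 42.4 to 42.7 in siH19-2 cells and 42.9 to 43.1 in NC cells for the line markers, and 30.2 to 30.4 in siH19-2 cells and 30.5 to 30.6 in NC cells for the ductal markers, and their part in the results was not tested. Of 24 markers of acinar, islet, blood, vascular and stromal cells, 9 lay above the median signal. Of these 24, 0 were called by limma and 2 had an unadjusted limma p under 0.05, against 5.26% and 20.3% of all named probe sets. With so few markers, this count does not show that such cells were absent. The first principal component of all named probe sets held 34.2% of the variance and gave siH19-2 replicate 3 a score of 21.7, against 12.4 and 12.6 for its group's other arrays. Over the 35 genes, siH19-2 replicate 3 was farthest from its group median in 21 genes, and NC replicate 3 from its own in 17. Results are therefore also given without siH19-2 replicate 3, and calls with each other array left out.

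Proteins that misfold in the ER are sensed by the membrane proteins IRE1 (ERN1), PERK (EIF2AK3) and ATF6. IRE1 splices the RNA of XBP1, ATF6 is released as a transcription factor by proteolysis, and PERK phosphorylates the translation factor eIF2, which slows most protein synthesis but favours translation of ATF4. XBP1 and ATF6 raise chaperones and ERAD factors, whereas ATF4 raises CHOP (DDIT3), amino acid enzymes and feedback inhibitors. The pancreas secretes large amounts of protein, and the UPR has been studied widely in this organ and its tumours.

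The promoters of several of these genes carry known recognition sequences of these factors, which are shown here because the genes that carry them can be set side by side in the results. Promoters from 250 bases before to 50 bases after the start were read from RefSeq (GRCh38.p14) for 32 of the 35 genes. PDIA3, DERL1 and DERL3 had no entry. Both strands were searched for the ER stress response element ERSE (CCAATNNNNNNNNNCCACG), the shorter ERSE-II (ATTGGNCCACG), an XBP1 element (TGACGTGG), a cyclic AMP response element (TGACGTCA) and the C/EBP-ATF element (TGATGNAA), which ATF4 dimers bind. ERSE occurred in 7 of 32 genes (21.9%; CALR, CANX, CRELD2, HSP90B1, HSPA5, PDIA6 and XBP1), against 25 of 27305 genes (0.0916%) in the table. ERSE-II occurred in 3 of 32 (9.38%; HERPUD1, HYOU1 and SDF2L1), against 0.0696% of all genes. The C/EBP-ATF element occurred in 4 of 32 (12.5%; ASNS, ATF3, CHAC1 and HERPUD1), against 4.46% of all genes. The XBP1 element was found in HYOU1 alone, where it overlaps an ERSE-II, and the cyclic AMP response element in PPP1R15A alone, against 0.927% and 2.25% of all genes. A match describes letters in a window and not binding. The genes were chosen as known members of these responses, so their higher shares follow from that choice and are no result of the arrays. The following windows are read 5′ to 3′ on the strand of the gene, with the matched letters in capitals.
HSPA5 ERSE: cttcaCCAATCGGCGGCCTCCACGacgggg
XBP1 ERSE: gctggCCAATCGCGGAGGGCCACGaccgta
CANX ERSE: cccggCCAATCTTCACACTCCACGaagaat
CALR ERSE, reverse orientation: ccacgCGTGGTCGACCATCATTGGtcggtg
HERPUD1 ERSE-II: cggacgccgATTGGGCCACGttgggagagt
HERPUD1 C/EBP-ATF element, reverse orientation: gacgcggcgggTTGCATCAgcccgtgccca
CHAC1 C/EBP-ATF element, reverse orientation: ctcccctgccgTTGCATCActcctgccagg
ASNS C/EBP-ATF element: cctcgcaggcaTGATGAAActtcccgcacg

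These windows lie in GRCh38.p14 at chr9:125241385-125241414 (HSPA5, minus strand), chr22:28800597-28800626 (XBP1, minus strand), chr5:179698773-179698802 (CANX, plus strand) and chr19:12938379-12938408 (CALR, plus strand). The HERPUD1 windows lie at chr16:56932016-56932045 for ERSE-II and chr16:56931955-56931984 for the C/EBP-ATF element, both on the plus strand. The CHAC1 window lies at chr15:40953251-40953280 (plus strand) and the ASNS window at chr7:97872458-97872487 (minus strand).

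Of the 35 genes, 5 were upregulated in siH19-2 cells (HERPUD1, DDIT4, DNAJC3, TRIB3 and CALR) and 3 were downregulated (CHAC1, DERL2 and DERL1). The upregulated genes reached 114% to 129% of their level in NC cells, and the downregulated genes 80.8% to 84.0%. The 3 sensors, the 5 transcription factors and the 3 disulfide isomerases held 0 called genes, by limma and by the methods' t-test (equal variances, here with Benjamini-Hochberg adjustment), although 2, 1 and 0 of them had an unadjusted limma p under 0.05. The called genes therefore came from the ATF4 and stress output (2 up and 1 down of 6), the ER chaperones (2 up of 11) and ERAD (1 up and 2 down of 7).

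These counts were set beside those of all named probe sets. The 5 upregulated genes were 14.3% of the 35, against 2.64% of all named probe sets, and the 3 downregulated genes were 8.57%, against 2.63%. Since 34 of the 35 genes lay above the median signal (VLDLR did not), the brighter 19630 probe sets are the closer background. Of these, 5.03% were upregulated and 4.8% downregulated. Most of the 35 genes lay far above that median, with a median log2 signal of 8.67 in NC cells, against 6.16 for all probe sets. A background of matching signal was not used. In the related lists described below, 0% to 36% of genes were called in either direction, against 22.9% of the 35. The 6 arrays separated without overlap in 14 genes that were higher in siH19-2 cells (40% of the 35, against 18.3% of all and 24.4% of the brighter probe sets) and in 9 that were lower (25.7%, against 9.98% and 15.4%). The values of the remaining 12 genes overlapped between the groups. An unadjusted limma p under 0.05 was found in 20 of the 35 genes (57.1%), 13 of them higher and 7 lower, against 20.3% of all and 29.9% of the brighter probe sets. The median log2 difference of the 35 genes was 0.025, close to 0.016 for all probe sets and 0.015 for the brighter ones, with 20 genes above 0 (57.1%, against 55.7% of all probe sets) and 15 below. The methods set a p under 0.05 with a fold change above 1, which is marked in the volcano plots of the study as a log2 change of 1. At an unadjusted p under 0.05 with an absolute log2 difference above 1, 0 of the 35 genes passed, against 0.0764% of all probe sets.

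**Figure D1:**
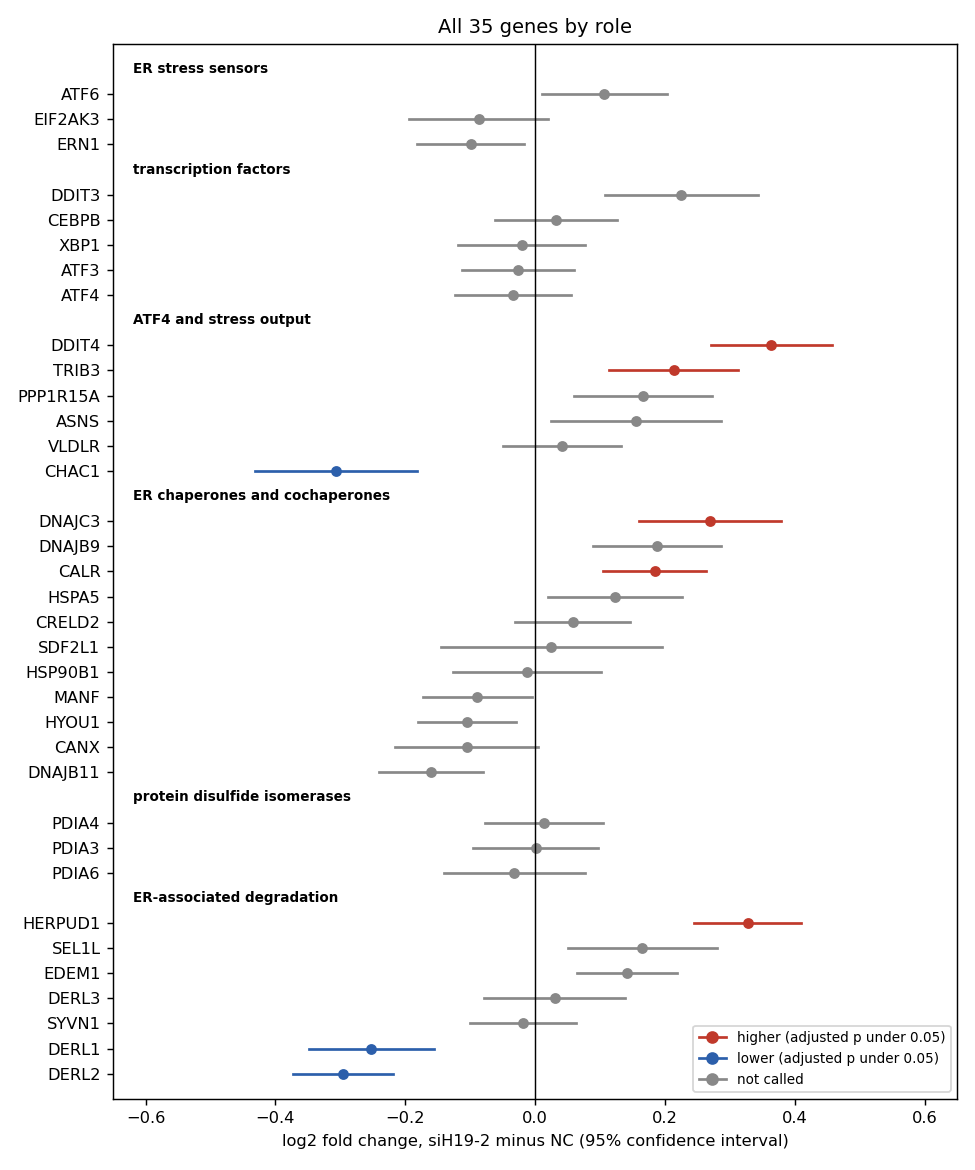
Log2 difference, siH19-2 minus NC (x axis), of all 35 genes grouped by role (y axis), where points are limma estimates from 3 arrays per group and lines are 95% confidence intervals. The genes called upregulated (red) and downregulated (blue) lie within 3 of the 6 roles, and differences run from -0.31 (CHAC1) to 0.36 (DDIT4).

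ERAD contained called genes of both directions. HERPUD1 is an ER membrane protein with a ubiquitin-like domain that organizes the HRD1 ubiquitin ligase complex and is a known target of both ATF6 and ATF4. The log2 signal of HERPUD1 was 10.44, 10.46 and 10.40 on the siH19-2 arrays, against 10.10, 10.11 and 10.09 on the NC arrays. All siH19-2 values lay above all NC values, and the NC arrays lay close together. HERPUD1 was upregulated by 0.33 on the log2 scale (SE 0.034, limma adjusted p = 0.00733), which is 125% of NC (95% interval 118% to 133%). Of the fits with 1 array left out, the call was lost only without NC replicate 1 (adjusted p = 0.0508).

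DERL1, DERL2 and DERL3 are the derlins, membrane proteins that help to move misfolded proteins out of the ER. DERL2 had log2 signals of 9.10, 9.09 and 9.09 in siH19-2 cells, against 9.38, 9.41 and 9.38 in NC cells. DERL1 had log2 signals of 8.67, 8.68 and 8.60 in siH19-2 cells, against 8.92, 8.87 and 8.92 in NC cells. Both genes were lower on every siH19-2 array, and siH19-2 replicate 3 was the lowest array for both. The difference was -0.30 for DERL2 (SE 0.031, limma adjusted p = 0.00806), which is 81.4% of NC, and -0.25 for DERL1 (SE 0.039, adjusted p = 0.025), which is 84.0% of NC. The call of DERL2 was lost without NC replicate 1 (adjusted p = 0.0533) and without NC replicate 2 (0.0532), and the call of DERL1 was lost whichever array was left out (adjusted p 0.057 to 0.112). DERL3 had a difference of 0.03 with overlapping groups (adjusted p = 0.762).

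SYVN1, SEL1L and EDEM1, the other ERAD genes of the set, were not called. SYVN1 encodes the HRD1 ubiquitin ligase and had a difference of -0.02 (95% interval -0.10 to 0.06) with overlapping groups. SEL1L, the adaptor that stabilizes HRD1, had a difference of 0.16 (adjusted p = 0.121), and EDEM1, which extracts misfolded glycoproteins from the folding cycle, 0.14 (adjusted p = 0.0665). The groups were separated for both genes, but neither passed the threshold. EDEM1 would pass in the methods' t-test (adjusted p = 0.0134) and with an intensity trend and robust prior (0.0175). Within single arrays, the log2 ratio of HERPUD1 to DERL2 was higher by 0.62 in siH19-2 cells than in NC cells, and that of HERPUD1 to DERL1 by 0.58. All gene pairs set against each other in this way were chosen after their values were seen and are a description.

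The 6 genes of the ATF4 and stress output contained the largest differences of the set in each direction. DDIT4 (REDD1) inhibits the growth kinase mTORC1 under energy, oxygen or ER stress. The siH19-2 arrays gave log2 signals of 10.00, 9.93 and 9.99 for DDIT4, against 9.58, 9.63 and 9.61 on the NC arrays. Every siH19-2 value exceeded every NC value. DDIT4 was upregulated by 0.36 (SE 0.038, limma adjusted p = 0.00772), which is 129% of NC (95% interval 121% to 137%), and of the fits with 1 array left out, the call was lost only without NC replicate 1 (adjusted p = 0.0511).

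TRIB3 is a pseudokinase induced by ATF4 and CHOP that restrains ATF4 activity. Its log2 signal was 8.35, 8.35 and 8.30 on the siH19-2 arrays, against 8.09, 8.17 and 8.09 on the NC arrays. The groups were separated, with siH19-2 replicate 3 nearest to the NC values. TRIB3 was upregulated by 0.21 (SE 0.040, limma adjusted p = 0.0425), which is 116% of NC. The call lay close to the threshold and was lost whichever array was left out (adjusted p 0.0767 to 0.157) and with cyclic loess normalization (adjusted p = 0.0532).

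CHAC1 degrades glutathione and is known as a target of the ATF4, ATF3 and CHOP cascade. CHAC1 had log2 signals of 7.71, 7.72 and 7.60 in siH19-2 cells, against 8.01, 8.02 and 7.92 in NC cells. All siH19-2 values were below all NC values, with replicate 3 the lowest in both groups. The signal of CHAC1 decreased by 0.31 on the log2 scale (SE 0.051, limma adjusted p = 0.0297), which is 80.8% of NC (95% interval 74.2% to 88.1%). Its call was lost whichever array was left out (adjusted p 0.0662 to 0.122) and in the methods' t-test (adjusted p = 0.0555). CHAC1 and TRIB3, both targets of ATF4, thus passed the threshold in opposite directions, and the log2 ratio of TRIB3 to CHAC1 was higher by 0.52 in siH19-2 cells. HERPUD1 and CHAC1 were likewise called in opposite directions, and both promoters hold the C/EBP-ATF element shown above in the same letters and orientation.

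The other genes of this role did not pass. PPP1R15A (GADD34) directs the phosphatase that reverses eIF2 phosphorylation, and its difference was 0.17 (adjusted p = 0.0987; 0.0483 with the trend prior) with separated groups. ASNS, asparagine synthetase, had a difference of 0.15 (adjusted p = 0.185), with log2 signals of 8.79, 8.75 and 8.93 in siH19-2 cells, against 8.66, 8.67 and 8.68 in NC cells. The groups of ASNS were separated, with siH19-2 replicate 3 the highest. VLDLR, a lipoprotein receptor induced through PERK, lay below the median signal of all probe sets and had a difference of 0.04 with overlapping groups.

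**Figure D2:**
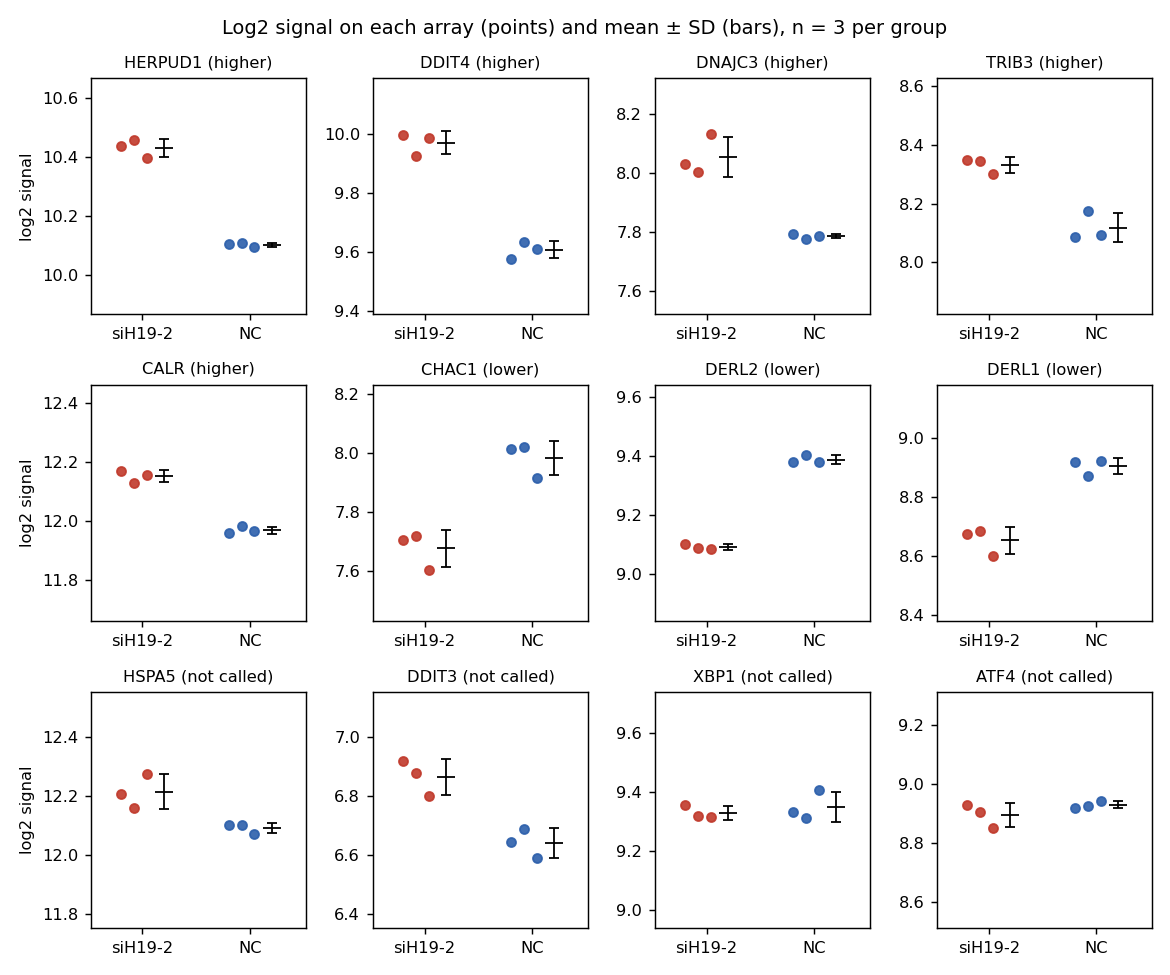
Log2 signal (y axis) of the 8 called genes and of HSPA5, DDIT3, XBP1 and ATF4 on each array, siH19-2 arrays (red) left of NC arrays (blue), with the mean and SD of 3 arrays as bars. Each panel spans the same log2 range around its own centre, and the called genes separate without overlap while XBP1 and ATF4 overlap.

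The transcription factors that define the branches of the response were not called. ATF4 had log2 signals of 8.93, 8.90 and 8.85 in siH19-2 cells, against 8.92, 8.93 and 8.94 in NC cells. XBP1 had log2 signals of 9.35, 9.32 and 9.31 in siH19-2 cells, against 9.33, 9.31 and 9.40 in NC cells. Both genes overlapped between the groups. The difference was -0.03 for ATF4 (limma adjusted p = 0.666; 95% interval 91.8% to 104% of NC) and -0.02 for XBP1 (adjusted p = 0.824; 92.1% to 105% of NC). The deposited data give 1 combined value per gene, so spliced and unspliced XBP1 were not separated here. Neither ATF4 translation nor eIF2 phosphorylation was measured. The value of ATF4 is uncertain because its processed pseudogenes share its sequence. ATF4P3 and ATF4P4 had log2 signals of 8.61 and 8.10 in siH19-2 cells, against 8.72 and 8.16 in NC cells, and neither was called.

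DDIT3 encodes CHOP, the factor that links sustained ER stress to cell death. Its log2 signal was 6.92, 6.88 and 6.80 in siH19-2 cells, against 6.64, 6.69 and 6.59 in NC cells. The groups were separated, with siH19-2 higher. The difference of 0.22 (SE 0.048) was 117% of NC (95% interval 108% to 127%) and missed the threshold (limma adjusted p = 0.0589), which it would pass with the trend prior (0.0342). ATF3, a stress-induced repressor, and CEBPB, a partner of ATF4 in DNA binding, had differences of -0.03 and 0.03 with overlapping groups.

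The 3 sensors differed little and not in the same direction. ATF6 had a difference of 0.11 (adjusted p = 0.206), with siH19-2 values above all NC values. ERN1 had a difference of -0.10 (adjusted p = 0.178) and EIF2AK3 one of -0.09 (adjusted p = 0.336), in both cases with siH19-2 values below all NC values. The unadjusted limma p was 0.035 for ATF6, 0.026 for ERN1 and 0.0939 for EIF2AK3.

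Among the 11 ER chaperones and cochaperones, DNAJC3 and CALR were upregulated and the other 9 were not called. DNAJC3 (p58IPK) assists the chaperone BiP and is known as an inhibitor of PERK. Its log2 signal was 8.03, 8.00 and 8.13 in siH19-2 cells, against 7.79, 7.78 and 7.79 in NC cells. The siH19-2 arrays lay above the tight NC arrays and were more spread, with replicate 3 the highest. DNAJC3 was upregulated by 0.27 (SE 0.044, limma adjusted p = 0.0296), which is 120% of NC (95% interval 112% to 130%). The call was kept without siH19-2 replicate 3 (adjusted p = 0.0466) and lost whichever of the other 5 arrays was left out (highest adjusted p 0.114).

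CALR (calreticulin) is the soluble lectin chaperone of newly made glycoproteins and binds calcium in the ER. On the siH19-2 arrays its log2 signal was 12.17, 12.13 and 12.16, against 11.96, 11.98 and 11.96 on the NC arrays. The groups were well separated relative to their spread. CALR was upregulated by 0.18 (SE 0.032, limma adjusted p = 0.0353), which is 114% of NC, and the call was lost whichever array was left out (adjusted p 0.0793 to 0.140). CANX (calnexin), the membrane-bound lectin of the same folding cycle, had a difference of -0.11 (adjusted p = 0.265), and the log2 ratio of CALR to CANX was higher by 0.29 in siH19-2 cells. Both promoters hold an ERSE.

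HSPA5 encodes BiP, the principal ER chaperone and the gene most used as a readout of the UPR. Its log2 signal was 12.21, 12.16 and 12.28 in siH19-2 cells, against 12.10, 12.10 and 12.07 in NC cells. The siH19-2 values lay above the NC values without overlap, with replicate 3 the highest. The difference of 0.12 (SE 0.042) was 109% of NC (95% interval 101% to 117%) and was not called (limma adjusted p = 0.180). HSP90B1 (GRP94), the ER form of HSP90, had a difference of -0.01 with overlapping groups (adjusted p = 0.910; 95% interval 91.6% to 107% of NC).

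The remaining chaperones lay on both sides of 0. DNAJB9 (ERdj4), a BiP cochaperone that restrains IRE1, had a difference of 0.19 (adjusted p = 0.0589), and DNAJB11 (ERdj3), a cochaperone that binds unfolded clients, one of -0.16 (adjusted p = 0.0516). The groups were separated in both genes, in opposite directions. DNAJB11 would pass with cyclic loess normalization (adjusted p = 0.0423), in the methods' t-test (0.0198) and with the trend prior (0.00881), and DNAJB9 with the trend prior (0.0247). HYOU1, the exchange factor of BiP, and MANF, a secreted BiP-binding protein, had differences of -0.11 and -0.09 with siH19-2 values below all NC values (adjusted p = 0.130 and 0.224). HYOU1 would pass in the methods' t-test (adjusted p = 0.00781) and with the trend prior (0.0221). CRELD2 and SDF2L1, both known ER stress targets, had differences of 0.06 with separated groups and 0.03 with overlapping groups. SDF2L1 was the most spread gene of the set, with an SD of 0.10 in siH19-2 cells and 0.08 in NC cells.

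The 3 disulfide isomerases of the set, which form and rearrange disulfide bonds in the ER, showed no difference larger than the spread between arrays. PDIA5, a disulfide isomerase outside the set, was downregulated (-0.56, limma adjusted p = 0.00442). PDIA4, PDIA3 and PDIA6 had differences of 0.01, 0.00 and -0.03, all with overlapping groups and unadjusted p-values of 0.724, 0.990 and 0.494. The 95% intervals reached from 93.6% to 107% of NC for PDIA3. PDIA3 shares sequence with the pseudogene PDIA3P1, which had a difference of 0.11 (adjusted p = 0.166), and its value is uncertain for that reason.

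Genes with the same promoter element were not called together. Of the 7 genes with an ERSE, CALR was upregulated and the other 6 were not called, with differences of -0.11 (CANX) to 0.12 (HSPA5). Of the 3 with an ERSE-II, HERPUD1 was upregulated, whereas HYOU1 (-0.11) and SDF2L1 (0.03) were not called. Of the 4 with a C/EBP-ATF element, HERPUD1 was upregulated, CHAC1 was downregulated, and ASNS (0.15) and ATF3 (-0.03) were not called. For comparison, 22.9% of the 35 genes and 9.84% of the brighter probe sets were called in either direction. The calls of CALR and CHAC1 were lost whichever array was left out. With so few genes per element, a link between element and call was not tested.

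**Figure D3:**
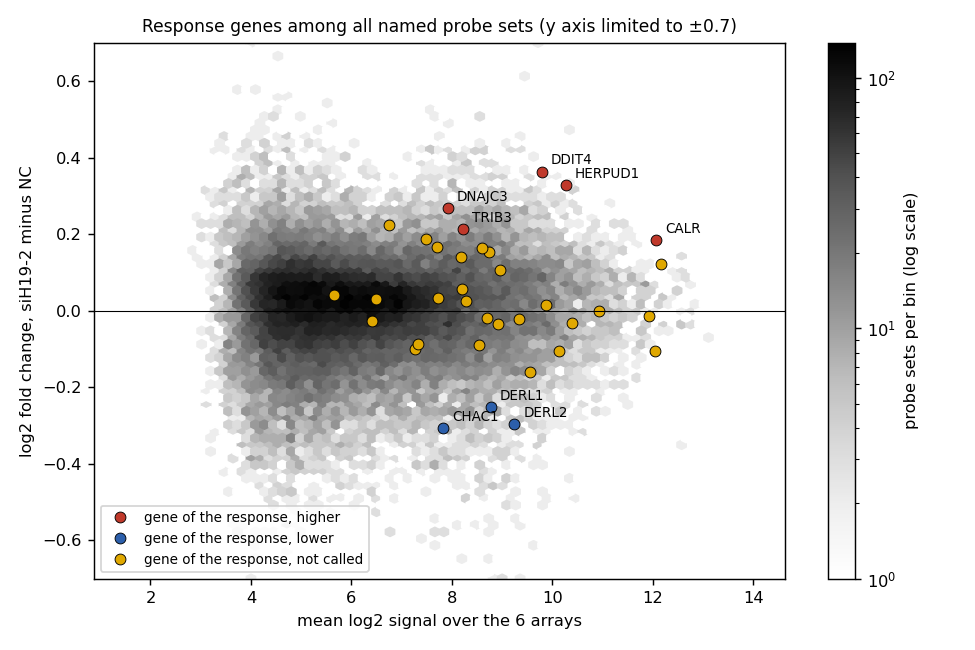
Log2 difference, siH19-2 minus NC (y axis, limited to ±0.7), against the mean log2 signal over the 6 arrays (x axis) for all named probe sets (grey, darker where more probe sets fall, logarithmic scale) and the 35 genes (coloured). Nearly all of the 35 genes lie above the median signal of 6.16, and the 8 labelled genes are those called.

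Each of the 8 calls was lost in at least 1 of the fits with 1 array left out. With Bonferroni-Holm adjustment, which the statistics section of the study names, 0 of the 8 passed by limma or by the methods' t-test. In the methods' t-test with Benjamini-Hochberg adjustment, 6 of the 35 genes were called higher and 4 lower, against 3.36% and 2.21% of all probe sets. Without NC replicate 1, 0 of the 8 were kept, and without siH19-2 replicate 3, which stands apart from its group, 4 were kept (HERPUD1, DDIT4, DNAJC3 and DERL2). HERPUD1 and DDIT4 kept their call whichever of the other 5 arrays was left out. The count over all probe sets also dropped with fewer arrays, to 464 without NC replicate 1 and 1078 without siH19-2 replicate 3, against 2067 with all arrays. The sign of the difference of the 8 called genes was the same whichever array was left out. Because the groups of all 8 were separated, leaving out 1 array could not have changed it.

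**Figure D4:**
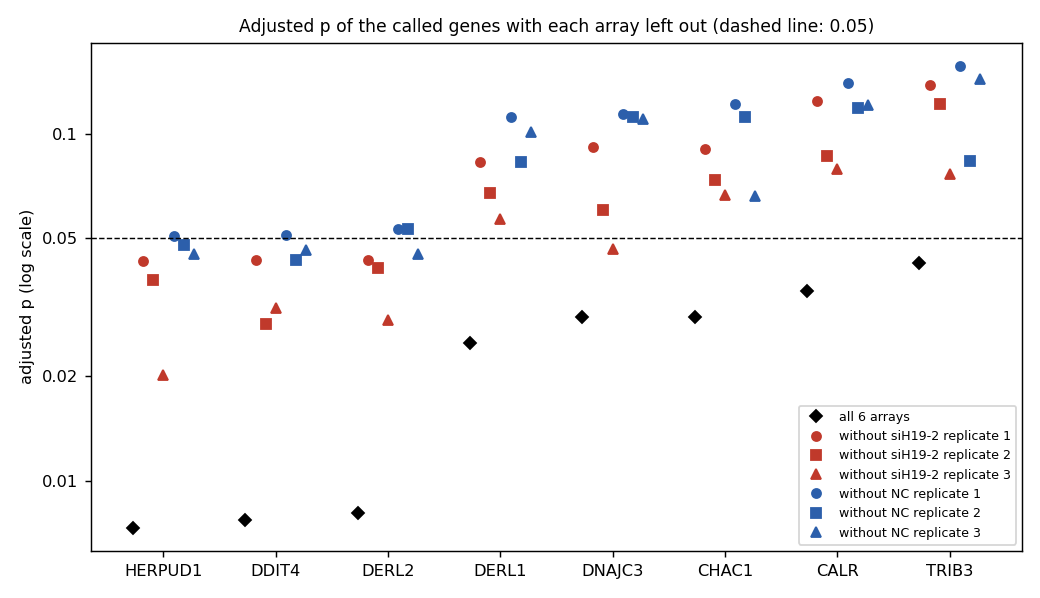
Limma adjusted p (y axis, logarithmic scale) of the 8 called genes (x axis) with all 6 arrays (black diamonds) and with each siH19-2 array (red) or NC array (blue) left out. The dashed line marks 0.05, and only HERPUD1, DDIT4 and DERL2 have most points below it, while TRIB3 reaches 0.157.

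Related genes outside the set were examined in 7 further lists to place the 35 genes in their pathways. Nearly all of these genes were among the brighter probe sets, of which 9.84% were called in either direction, against 5.26% of all probe sets. Of 20 other UPR regulators and eIF2 factors, 5 were upregulated and 1 was downregulated (30% called). EIF2B1, a subunit of the exchange factor that eIF2 phosphorylation inhibits, was higher by 0.26 (limma adjusted p = 0.0237), CREBRF, a regulator of the UPR factor CREB3, by 0.26 (0.0295) and ATF6B, the relative of ATF6, by 0.21 (0.0288). With 1 array left out, ATF6B lost its call whichever array this was, and EIF2B1 and CREBRF kept it only without siH19-2 replicate 3. Of 20 other ER chaperones and folding enzymes, 3 were upregulated and 3 downregulated (30%). PDIA5, a disulfide isomerase, averaged a log2 signal of 7.85 in siH19-2 cells and 8.41 in NC cells, and thus fell by 0.56 (adjusted p = 0.00442). FKBP14, a prolyl isomerase of collagen folding, was higher by 0.43 (0.0101), and UGGT2, a relative of the glycoprotein folding sensor, fell by 0.25 (0.0215). FKBP14 lost its call without NC replicate 1 or siH19-2 replicate 1, and UGGT2 lost it whichever array was left out.

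Of 16 genes of the ER translocon and of signal peptide processing, 1 was upregulated and 1 downregulated (12.5%, near the share of the brighter probe sets). SERP1, a stress-associated protein of the translocon, had log2 signals of 8.79, 8.87 and 8.83 in siH19-2 cells, against 9.38, 9.36 and 9.39 in NC cells. It fell by 0.55 (68.5% of NC, limma adjusted p = 0.00222) and kept its call whichever array was left out. SEC61A1, the channel subunit, was higher by 0.19 (adjusted p = 0.0318) and lost its call whichever array was left out. Of 18 other ERAD genes, UBXN4 alone was upregulated (0.19, adjusted p = 0.0354), a call that was lost whichever array was left out, and 15 of the 18 had a difference above 0, as did 55.6% of the brighter probe sets. With 1 gene called (5.56%), this list lay below the called share of the brighter probe sets. The groups were separated with siH19-2 higher in 11 of the 18 and lower in 0, against 24.4% and 15.4% of the brighter probe sets. An unadjusted limma p under 0.05 was found in 8 of the 18, all higher, against 29.9% of the brighter probe sets in either direction.

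Of 25 other ATF4 targets, 5 were upregulated and 4 downregulated (36% called). Calls over all probe sets were also split between the directions, with 1035 higher and 1032 lower. PSAT1, an enzyme of serine synthesis, had log2 signals of 9.27, 9.30 and 9.28 in siH19-2 cells, against 10.28, 10.25 and 10.30 in NC cells. It fell by 1.00 (50.2% of NC, limma adjusted p = 0.000561). CTH, which makes cysteine, was higher by 0.38 (adjusted p = 0.00728), and TXNIP, an inhibitor of thioredoxin, by 0.44 (0.00417). These 3 genes kept their call whichever array was left out. Of 13 aminoacyl-tRNA synthetases, which ATF4 is known to raise together, AARS1 and CARS1 were upregulated (0.27 and 0.18, adjusted p = 0.015 and 0.045) and WARS1 was downregulated (-0.45, adjusted p = 0.00259). A difference above 0 was found in 11 of the 13, and in 55.6% of the brighter probe sets. The called genes were 23.1% of the list. With 1 array left out, WARS1 kept its call whichever array this was, AARS1 kept it only without siH19-2 replicate 3, and CARS1 lost it in each case and also with cyclic loess normalization (adjusted p = 0.0609). Of 13 genes of the heat shock response, which are mostly cytosolic chaperones but include the mitochondrial chaperonin HSPD1 and the transcription factor HSF1, 0 were called by limma or by the methods' t-test, 4 had an unadjusted limma p under 0.05, and the smallest adjusted p was 0.179 (HSPA4).

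**Figure D5:**
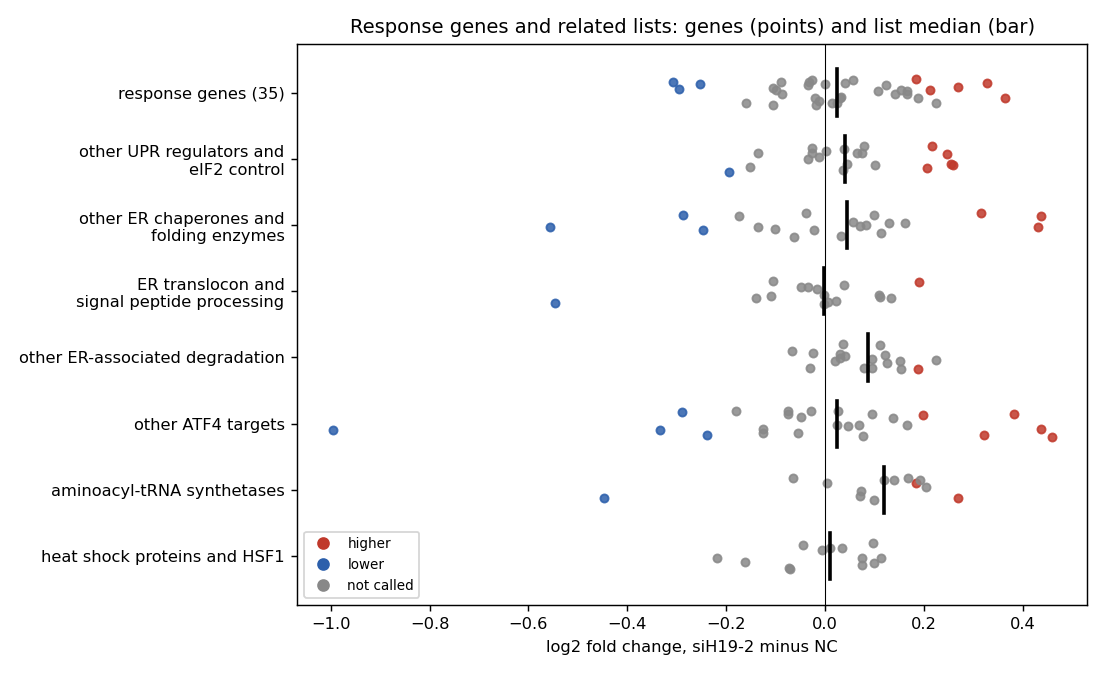
Log2 difference, siH19-2 minus NC (x axis), of each gene (points) of the 35 response genes and of the 7 related lists (y axis), with the list median as a black bar. Called genes are red (higher) or blue (lower), and medians lie between -0.002 and 0.119 while single genes run from PSAT1, which fell by 1.00, to a gene at 0.46.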

How the data were processed

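Gene expression was measured on 6 Clariom D arrays of MIA-PaCa2 cells. The values are log2 signals, deposited by the authors after normalization between arrays. Once sorted, the values of 5 arrays were equal within 1e-09 and those of NC replicate 1 deviated by up to 0.00184, as after quantile normalization. The methods name limma for this step, whereas their statistics section names JMP, and neither a background correction nor a release of the annotation is stated in the sources used here. A further table deposited by the authors gave gene names and IDs. It also holds group means, a log2 difference, a test statistic as a score, p-values with their adjusted values and −log10, and none of these columns was used. Values of 0 columns could not be assigned to a sample.

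Groups were taken from the labels. Log2 differences, siH19-2 minus NC, were fitted by lmFit and eBayes of limma 3.58.1 under R 4.3.3 (1.92 prior degrees of freedom, two-sided) over 39261 of 39334 probe sets that carried a name, without a filter on dim probe sets, and p-values were adjusted by Benjamini-Hochberg over all of them. The fit was tested on simulated data with known changes. Promoter sequences came from RefSeq, promoter motifs were counted in Python 3.11.15, and protein sequences were not used here. The number of arrays limits the precision. Correlations between arrays were 0.993 to 0.995 within groups and 0.991 to 0.993 between groups. Members and lists were chosen with earlier results of these data known, so no test over the list was made. All 35 genes were eligible for naming, along with H19 and, of each related list, up to 3 genes with the smallest p. Of the genes of the related lists, 13 synthetases were matched by gene ID, and HSPE1 was not found under its symbol. Alternatives were another centring, cyclic loess, only the brighter probe sets, a trend prior, the methods' t-test (with Benjamini-Hochberg adjustment, where the statistics section names Bonferroni-Holm), Bonferroni-Holm, other thresholds, a block for the replicate number, and leaving out each array. 1 planned marker of the line is not reported here.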

Additional observations from a re-analysis of the deposited data

How the results depend on the processing

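The directions of the 8 called genes were the same under every alternative run. Only the other centring and cyclic loess could have changed them. The other settings leave the difference as it is, or leave out 1 array from groups that were separated. With the brighter probe sets only, 10 of the 34 response genes tested were called higher and 5 lower, against 11.9% and 8.81% of all probe sets tested. With an intensity trend and robust prior these were 9 and 5 of 35 (4.9% and 3.88% of all probe sets), and at an adjusted p under 0.1 they were 9 and 4 (4.95% and 4.05%). With Bonferroni-Holm adjustment by limma, 0 and 0 were called, likewise 0 and 0 in the methods' t-test with Bonferroni-Holm, an alternative chosen after seeing the data, and 0 and 0 at an unadjusted p under 0.05 with an absolute log2 difference above 1 (the log2 threshold). With each array left out, 0 to 3 genes were called higher and 0 to 1 lower. The calls over all probe sets were 2067 as reported, 4058 among the brighter ones, 3449 with the trend prior, 3536 at an adjusted p under 0.1, 43 with Bonferroni-Holm, 12 in the methods' t-test with Bonferroni-Holm, 30 at the log2 threshold and 464 to 1078 with each array left out. The number of genes tested changes with the brighter set, and the number of arrays with each array left out. Bonferroni-Holm by limma, the log2 threshold and the adjusted p under 0.1 apply other cutoffs to the same limma fit. For the remaining settings the cause was not tested.

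Same-numbered arrays did not deviate together (correlations 0.006, 0.010 and 0.005), and each siH19-2 array correlated best with an NC array of another number. With the replicate number as a block, 0 of the 35 genes were called higher, 0 lower, and 74 probe sets in all. Of the related lists, other ATF4 targets kept a count of 1 and the others 0 with this replicate block, and H19 had a difference of -0.298 (adjusted p = 0.0906).

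For the UPR regulators and eIF2 factors, the count of 6 became 0 with Bonferroni-Holm in either test, 0 at the log2 threshold and 0 to 2 with each array left out. For the ER chaperones and folding enzymes (6) it was 0, 0 and 1 to 3, and for the translocon (2) it was 0, 0 and 1 to 1. For the other ERAD genes (1) it was 0, 0 and 0 to 0, but 5 among the brighter probe sets, 6 with the trend prior, 4 in the methods' t-test and 3 at an adjusted p under 0.1. For the other ATF4 targets (9) it was 1, 0 and 3 to 7. For the synthetases (3) it was 0, 0 and 1 to 2, but 7 among the brighter probe sets, 8 with the trend prior, 5 in the methods' t-test and 7 at an adjusted p under 0.1. For the heat shock proteins (0) it was 1 with the trend prior. The difference of H19 was -0.298 and not called with Bonferroni-Holm in either test or at the log2 threshold, and -0.32 to -0.284 with each array left out.

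The median difference of the 35 genes was 0.008 with cyclic loess, which moved the median of all probe sets by -0.018, 0.019 among the brighter genes, and 0.012 to 0.028 with each array left out. Signs changed only in uncalled genes. PDIA3 had -0.017 and PDIA4 -0.004 with cyclic loess. With each array left out, PDIA3 ranged from -0.025 to 0.017, PDIA4 from -0.007 to 0.035, XBP1 from -0.039 to 0.007, HSP90B1 from -0.046 to 0.016, SDF2L1 from -0.019 to 0.081 and DERL3 from -0.004 to 0.054. The alternatives for H19, CD44, KRT19 and single genes of the related lists were chosen after seeing the data. The planned search of protein C-termini was not run.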
